A study of Mus musculus with 2 samples.

Results

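The 6 hairpin genes described here form both copies of the miR-23, miR-27 and miR-24 cluster of the mouse. Mir23a, Mir27a and Mir24-2 lie on chromosome 8, and Mir23b, Mir27b and Mir24-1 lie on chromosome 13. They were chosen by symbol, as the rows of the count files whose Ensembl identifiers GENCODE M21 assigns to these genes, and are 6 of 2202 annotated miRNA genes. Small RNA below a size limit of 30 was sequenced from total RNA of the gastrocnemius, a calf muscle. The samples were from male mice, 25 days old, of B6CASTF1/J, the F1 hybrid of C57BL/6 and CAST mice. The design has 1 untreated group with 2 libraries, numbered as biological replicates 1 and 2. Each carries its own animal number, while their donor identifier is shared, so their spread may be technical. Replicate 1 had 1491341 gene counts and replicate 2 had 2028332, and at least 10 counts in each library were reached by 267 genes, all 6 members among them.

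MiRNAs guide silencing complexes to messenger RNAs that pair with their seed, the bases 2 to 8 from the 5′ end. Each cluster is transcribed as 1 primary transcript from which the hairpins are cut, and each hairpin gives a 5p and a 3p arm. In mouse muscle, miR-23a is known to repress the ubiquitin ligase genes Fbxo32 and Trim63 that drive muscle wasting. MiR-27 is known to repress Pax3 and the growth inhibitor gene Mstn, and miR-24 is known to favour myoblast differentiation. Both clusters are also known for roles in endothelial cells and vessel growth.

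On mm10, the chromosome 8 cluster ran from 84208518 to 84208921 on the plus strand, a span of 404 bases. Mir23a took 84208518 to 84208592, Mir27a 84208672 to 84208758 and Mir24-2 84208815 to 84208921. The cluster lay between the protein-coding genes Nanos3 and Zswim4, 1756 bases from the nearer one, Zswim4. The last 2 bases of Mir24-2 overlapped the long noncoding RNA gene Gm26532, which starts at 84208920. The chromosome 13 cluster ran from 63300484 to 63301275 on the plus strand, a span of 792 bases. Mir23b took 63300484 to 63300557, Mir27b 63300712 to 63300784 and Mir24-1 63301208 to 63301275. All of these sit within the body of 2010111I01Rik, the gene of aminopeptidase O, on its strand, and of the DNA repair gene Fancc on the opposite strand. Mir23b was intronic in every annotated transcript of 2010111I01Rik, whereas Mir27b and Mir24-1 overlapped an exon of at least 1 transcript. Both clusters kept the order miR-23, miR-27, miR-24. The gaps were 79 and 56 bases on chromosome 8 and 154 and 423 bases on chromosome 13.

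**Figure D1:**
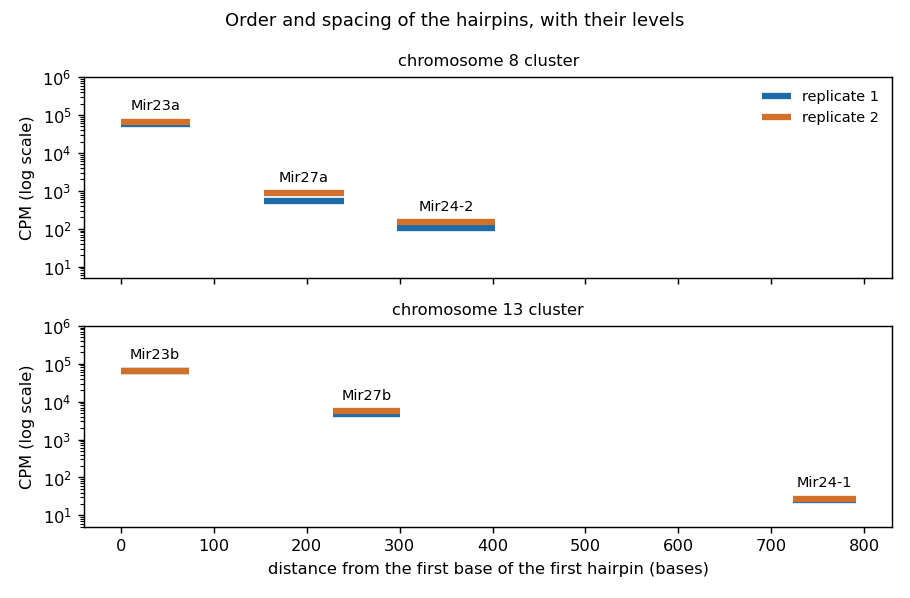
Each hairpin is drawn as a line from its first to its last base (x, bases from the first base of the first hairpin) at its CPM in each library (y, log scale), for the chromosome 8 cluster above and the chromosome 13 cluster below. The lines of replicate 2 partly cover those of replicate 1. Levels of reads placed at 1 locus fell along both clusters, over 404 bases on chromosome 8 and 792 bases on chromosome 13. Reads that match both miR-24 loci are left out.

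The hairpins are shown because the letters that both loci share decide which reads can be placed at 1 of them. They are from RefSeq on GRCm38.p6, 5′ to 3′, and the capitals mark the longest run that a hairpin shares with its counterpart on the other chromosome.
Mir23a: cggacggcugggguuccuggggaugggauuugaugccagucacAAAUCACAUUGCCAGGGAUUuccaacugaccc
Mir23b: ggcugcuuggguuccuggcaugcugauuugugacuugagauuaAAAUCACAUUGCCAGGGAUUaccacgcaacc
Mir27a: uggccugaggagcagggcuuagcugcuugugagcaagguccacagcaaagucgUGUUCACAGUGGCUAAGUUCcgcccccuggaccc
Mir27b: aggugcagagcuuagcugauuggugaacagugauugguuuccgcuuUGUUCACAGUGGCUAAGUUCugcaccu
Mir24-2: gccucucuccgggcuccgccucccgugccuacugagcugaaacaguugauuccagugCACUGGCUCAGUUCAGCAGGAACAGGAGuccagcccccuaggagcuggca
Mir24-1: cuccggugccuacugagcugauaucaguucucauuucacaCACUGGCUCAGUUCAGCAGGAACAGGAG
The shared run was 20 bases in the miR-23 pair, 20 bases in the miR-27 pair and 28 bases in the miR-24 pair. Over the whole hairpins, 73.8% of aligned columns were identical in the miR-23 pair, 61.1% in the miR-27 pair and 54.5% in the miR-24 pair. For each member, no other miRNA gene row shared a longer run than its counterpart did. The hairpins on chromosome 8 were richer in G and C, at 56.0% for Mir23a, 59.8% for Mir27a and 61.7% for Mir24-2, against 48.6% for Mir23b, 47.9% for Mir27b and 51.5% for Mir24-1.

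The mature 3p arms carry the seeds by which the families are known. They are given with the seed in capitals, and miR-24-3p is listed by RefSeq at both loci.
miR-23a-3p: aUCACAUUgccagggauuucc
miR-27a-3p: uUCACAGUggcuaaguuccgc
miR-27b-3p: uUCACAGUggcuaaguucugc
miR-24-3p: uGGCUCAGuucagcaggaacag
Counted from 1 at the 5′ end, miR-27a-3p and miR-27b-3p differed by C19U alone. The first 18 bases of miR-23a-3p also occur in the Mir23b hairpin, where the stretch of the same length differs by U19A alone. A read that starts at base 1 of these arms must therefore reach base 19 before its letters tell the loci apart. MiR-24-3p is the same at both loci over all of its 22 bases, and the shared run of 28 bases extends beyond it on either side. A read of only these letters matches chromosomes 8 and 13 equally. Reads that aligned to several loci stand in a summary row of the files and in no gene row, with 69.8% of the reads of replicate 1 and 71.8% of those of replicate 2. The seed of the miR-27-3p arms was in no other mature miRNA of the RefSeq table, nor was that of miR-23a-3p. That table lists no 3p arm for Mir23b, although the Mir23b hairpin holds the seed of miR-23a-3p as well. The seed of miR-24-3p was shared by 4 mature miRNAs that are not members.

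The 5p arms are shown because in the miR-24 pair they hold the mature bases that differ between the loci.
miR-23a-5p: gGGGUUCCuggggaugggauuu
miR-23b-5p: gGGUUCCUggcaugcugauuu
miR-27a-5p: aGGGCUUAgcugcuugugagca
miR-27b-5p: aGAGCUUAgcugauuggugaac
miR-24-2-5p: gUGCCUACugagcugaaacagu
miR-24-1-5p: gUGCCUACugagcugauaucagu
MiR-24-2-5p and miR-24-1-5p share their seed and their first 16 bases and then part. MiR-27a-5p and miR-27b-5p differed at 8 of 22 positions, G3A within the seed among them. The seeds of miR-23a-5p and miR-23b-5p also differed. The files give 1 count per hairpin gene, so reads of the 5p and 3p arms are summed.

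Both clusters together held 13.3 ± 0.832% of all gene counts (SD, n = 2, as for all later means). The chromosome 8 cluster held 5.73% of gene counts in replicate 1 (exact 95% interval 5.69 to 5.77) and 6.82% in replicate 2 (6.78 to 6.85). The chromosome 13 cluster held 6.98% in replicate 1 (6.94 to 7.02) and 7.07% in replicate 2 (7.04 to 7.11). The share of the chromosome 8 cluster was the lower one in both libraries, by a log2 ratio of -0.17 ± 0.16. Among these reads placed at 1 locus, nearly all of each share was miR-23. Reads that match both miR-24 loci stand in no gene row, so the make-up of the whole output of a cluster was not measured. Mir23a made up 98.9% and 98.5% of the counts of its cluster in replicates 1 and 2, and Mir23b made up 93.2% and 92.1% of its own. These intervals cover counting error only.

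Mir23a, the source of miR-23a, had 84510 counts or 56667 CPM (counts scaled to 1000000 gene counts) in replicate 1 and 136158 counts or 67128 CPM in replicate 2. Mir23b, the source of miR-23b, had 97056 counts or 65080 CPM in replicate 1 and 132207 counts or 65180 CPM in replicate 2. Mir23a averaged 61898 ± 7397 CPM and Mir23b averaged 65130 ± 71.0 CPM, in places 5 and 3 among all 2202 genes by reads placed at 1 locus. Their ranges overlapped, so the order of these 2 genes is within the spread of the libraries. Next to Mir23a in level were the smooth muscle gene Mir143 above and Mirlet7g below, and next to Mir23b were the endothelial gene Mir126a above and Mir143 below.

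Mir27a and Mir27b, which give miR-27, were far lower and far apart. Mir27a had 825 counts or 553 CPM in replicate 1 and 1770 counts or 873 CPM in replicate 2. Mir27b had 7013 counts or 4702 CPM in replicate 1 and 11228 counts or 5536 CPM in replicate 2. Their ranges did not overlap. Mir27a averaged 713 ± 226 CPM and Mir27b averaged 5119 ± 589 CPM, in places 71 and 30. The nearest genes in level were the muscle gene Mir486 above and Mir154 below Mir27a, and Mir151 above and Mir10a below Mir27b.

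Mir24-2 and Mir24-1, which both encode miR-24-3p, were the lowest members. Mir24-2 had 152 counts or 102 CPM in replicate 1 (exact 95% interval 86.4 to 119) and 305 counts or 150 CPM in replicate 2 (134 to 168). Mir24-1 had 38 counts or 25.5 CPM in replicate 1 (18.0 to 35.0) and 56 counts or 27.6 CPM in replicate 2 (20.9 to 35.9). Mir24-2 was thus higher than Mir24-1 in both libraries, in the opposite order from miR-27. Mir24-2 averaged 126 ± 34.3 CPM and Mir24-1 averaged 26.5 ± 1.51 CPM, in places 148 and 215. Mir25 and Mir574 stood next to Mir24-2 in level, and Mir32 and Mir345 next to Mir24-1. Per base of hairpin, Mir23a had 825 ± 98.6, Mir27a 8.19 ± 2.60 and Mir24-2 1.18 ± 0.320 CPM, against 880 ± 0.960 for Mir23b, 70.1 ± 8.07 for Mir27b and 0.390 ± 0.0221 for Mir24-1. The order of the members was the same on that scale. The median over the 6 members was 2916 CPM, against 165 CPM over the 267 genes with at least 10 counts in both libraries.

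**Figure D2:**
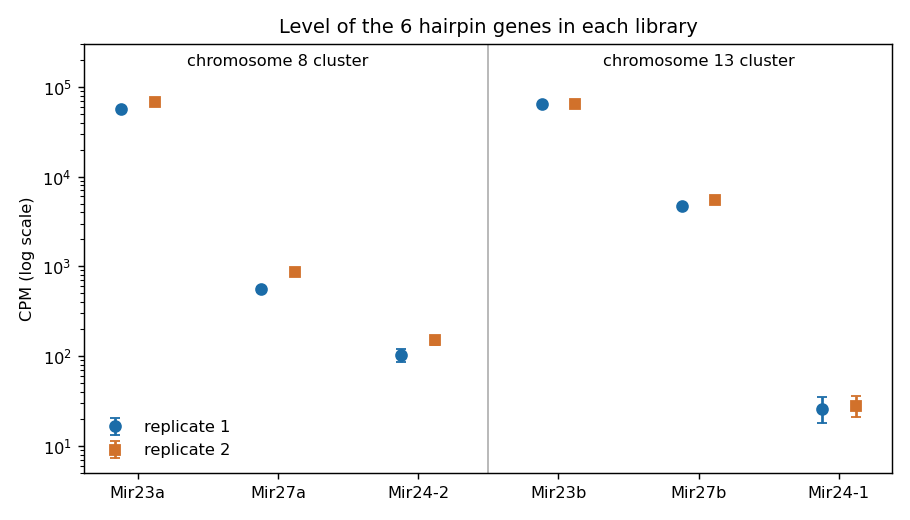
CPM of each member (y, log scale) in replicate 1 (circles) and replicate 2 (squares), with bars for exact 95% counting intervals, the chromosome 8 cluster left and the chromosome 13 cluster right. The miR-23 genes lie at 56667 to 67128 CPM, the miR-27 genes at 553 to 5536 and the miR-24 genes at 25.5 to 150.

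The miR-24 values rest on the reads that could be placed at 1 locus. How many reads of the shared miR-24-3p sequence were set aside was not measured, and the output of a locus cannot be told apart from it. Among the 1018 gene rows with a mature arm in the RefSeq table, 92 had an arm that is identical in another row. Of these 92, 32 reached 10 counts in each library, and these had a median of 116 CPM and a highest value of 4425 CPM. Of the other 926, 206 reached 10 counts in each library, and these had a median of 203 CPM and a highest value of 82900 CPM. Mir24-2 was number 16 and Mir24-1 number 24 by level among those 92 rows.

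Comparing counterparts within each library needs no scaling between libraries. The ratios use only reads placed at 1 locus, and how many reads matched both loci of a pair was not measured. Mir23a over Mir23b gave a log2 ratio of -0.20 in replicate 1 (exact 95% interval -0.21 to -0.19) and 0.04 in replicate 2 (0.03 to 0.05). The sign differed between the libraries, so neither miR-23 gene was the higher one throughout. Of the miR-23 counts placed at 1 locus, 46.5% came from Mir23a in replicate 1 and 50.7% in replicate 2. Mir27a over Mir27b gave -3.09 in replicate 1 (-3.19 to -2.98) and -2.67 in replicate 2 (-2.74 to -2.59). Mir27b thus had 8.50 times the counts of Mir27a in replicate 1 and 6.34 times in replicate 2, and the chromosome 8 gene held 10.5% and 13.6% of miR-27 counts. Mir24-2 over Mir24-1 gave 2.00 in replicate 1 (1.48 to 2.55) and 2.45 in replicate 2 (2.03 to 2.88). Here the chromosome 8 gene held 80.0% of the counts in replicate 1 and 84.5% in replicate 2. Per base of hairpin, the mean log2 ratios were -0.10 for Mir23a over Mir23b, -3.13 for Mir27a over Mir27b and 1.57 for Mir24-2 over Mir24-1. A read of a small RNA library covers a mature arm rather than the hairpin, so the values per gene lead here.

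Within the chromosome 8 cluster, Mir27a over Mir23a gave a log2 ratio of -6.68 in replicate 1 (-6.78 to -6.58) and -6.27 in replicate 2 (-6.33 to -6.20). Mir23a thus had 102 and 76.9 times the counts of Mir27a, its neighbour 79 bases downstream. Mir24-2 over Mir23a gave -9.12 in replicate 1 (-9.36 to -8.89) and -8.80 in replicate 2 (-8.97 to -8.64). Mir24-2 over Mir27a gave -2.44 (-2.70 to -2.19) and -2.54 (-2.72 to -2.36). The counting intervals of both Mir24-2 ratios overlapped between the libraries, and those of Mir27a over Mir23a did not. Per base of hairpin, the means were -6.69, -9.47 and -2.79.

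Within the chromosome 13 cluster, Mir27b over Mir23b gave -3.79 in replicate 1 (-3.83 to -3.76) and -3.56 in replicate 2 (-3.59 to -3.53). Mir23b thus had 13.8 and 11.8 times the counts of Mir27b. Mir24-1 over Mir23b gave -11.32 (-11.82 to -10.86) and -11.21 (-11.61 to -10.83). Mir24-1 over Mir27b gave -7.53 (-8.03 to -7.07) and -7.65 (-8.05 to -7.27). The intervals of both Mir24-1 ratios overlapped between the libraries and those of Mir27b over Mir23b did not. Per base of hairpin, the means were -3.65, -11.14 and -7.49.

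The clusters thus differed in how unequal the counts placed at their members were. The log2 ratio of miR-27 over miR-23 was lower on chromosome 8 than on chromosome 13, with a difference of -2.89 in replicate 1 and -2.71 in replicate 2 (-2.80 ± 0.13). That of miR-24 over miR-23 was higher on chromosome 8, by 2.20 and 2.40, and that of miR-24 over miR-27 by 5.09 and 5.11. The differences with miR-24 leave out reads that match both of its loci, so the output of the loci cannot be told apart from read placement there. Reads of only the first 18 bases of the miR-23 or miR-27 3p arms also match both loci. How many of these were left out was not measured. Each of these 3 differences had 1 direction in both libraries and was larger than their spread. No test over the 2 libraries was run.

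**Figure D3:**
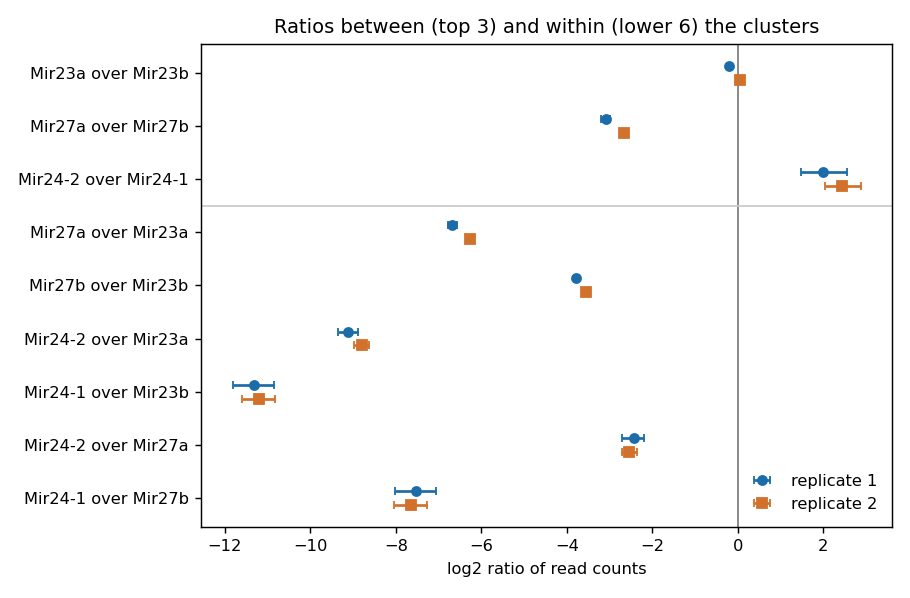
Log2 ratios of read counts (x) between the clusters (top 3 rows) and within them (lower 6 rows) in replicate 1 (circles) and replicate 2 (squares), with exact 95% counting intervals as bars. Mir23a over Mir23b lies at -0.20 and 0.04, Mir27a over Mir27b at -3.09 and -2.67, and all ratios within a cluster are negative.

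Neighbouring miRNA genes elsewhere gave a background for these steps. Pairs of genes on the same strand within 10 kb, each gene with at least 10 counts in both libraries, numbered 336, and 6 of them were pairs of members. The size of the mean log2 ratio ranged over the member pairs from 2.49 to 11.26 with a median of 7.03, and over the other 330 pairs from 0.00386 to 11.64 with a median of 2.30. Of these 330 pairs, 260 were formed by 46 genes of chromosome 12 and had a median of 2.27, and the 70 pairs from other chromosomes had a median of 2.40. Mir23b with Mir24-1 was the second largest step of all 336 and Mir23a with Mir24-2 the sixth, while Mir27a with Mir24-2 stood at place 163. Reads that match both miR-24 loci stand in no gene row, and their part in these steps was not tested. The change of the log2 ratio between the libraries ranged from 0.10 to 0.41 with a median of 0.18 over the member pairs. Over the others it ranged from 0.00356 to 2.07 with a median of 0.34. That median was 0.36 for the other pairs on chromosome 12 and 0.29 for those off it. The largest change, of Mir1949 with Gm49347, rests on 11 to 38 counts per gene and library. Pairs share genes, and 123 genes made up the other pairs, so these are descriptions without a test.

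**Figure D4:**
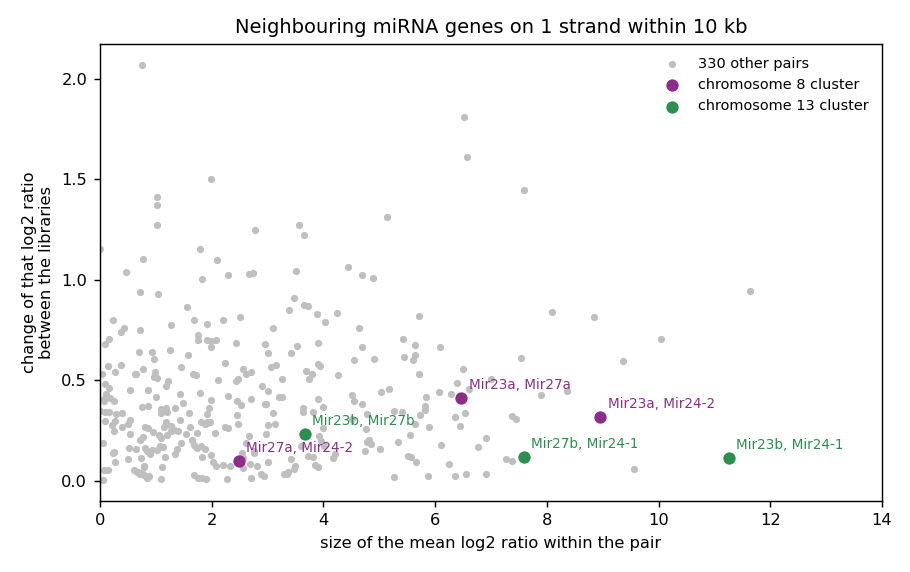
Each point is a pair of miRNA genes on 1 strand within 10 kb, with the size of its mean log2 ratio (x) and the change of that ratio between the libraries (y). The 6 member pairs are coloured and named, and they lie between 0.10 and 0.41 on the y axis, while the 330 other pairs in grey reach 2.07.

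The libraries were then compared per gene, replicate 1 over replicate 2, after scaling by TMM. The exact binomial test, adjusted over the 313 genes with at least 10 counts in all, asks whether a gene differs beyond counting error. All 3 members on chromosome 8 passed as lower in replicate 1. Of the members on chromosome 13 only Mir27b did, also as lower, and none of the 6 was higher in replicate 1. Of all tested genes, 19.8% passed as lower in replicate 1, 18.5% as higher and 38.3% in either direction. Mir27a had a log2 ratio of -0.67 (exact 95% interval -0.79 to -0.55, adjusted p = 2.64e-28, exact binomial test). Mir24-2 had -0.57 (-0.86 to -0.29, adjusted p = 0.000206, exact binomial test). Mir23a had -0.25 (-0.27 to -0.24), with an adjusted p of at most 1e-300 in the exact binomial test, and Mir27b had -0.25 (-0.29 to -0.20, adjusted p = 2.41e-28, exact binomial test). Mir23b had -0.01 (-0.02 to -0.00065, adjusted p = 0.0883, exact binomial test) and Mir24-1 had -0.13 (-0.76 to 0.49, adjusted p = 0.840, exact binomial test). The median was -0.57 over the chromosome 8 members and -0.13 over the chromosome 13 members, against -0.05 over all tested genes.

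With the spread between the libraries added to counting error, 0% of genes passed. In edgeR's exact negative binomial test 0 of 313 genes had an adjusted p under 0.05, and 15 had an unadjusted p under 0.05, none of them a member. Mir27a came nearest among the members, with an unadjusted p of 0.0756 and an adjusted p of 0.986. That spread, a biological coefficient of variation of 18.0%, was taken from the same libraries and so holds the differences tested. When TMM was computed only over genes with at least 10 counts, Mir23b turned to a log2 ratio of 0.04 and passed as higher in replicate 1 (adjusted p = 3.20e-08, exact binomial test). With the count column that ignores strand it passed as lower, at -0.03 (adjusted p = 4.98e-07, exact binomial test). Over the 7 settings its adjusted p ranged from 3.20e-08 to 0.818 in the exact binomial test. No direction is therefore given for Mir23b.

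**Figure D5:**
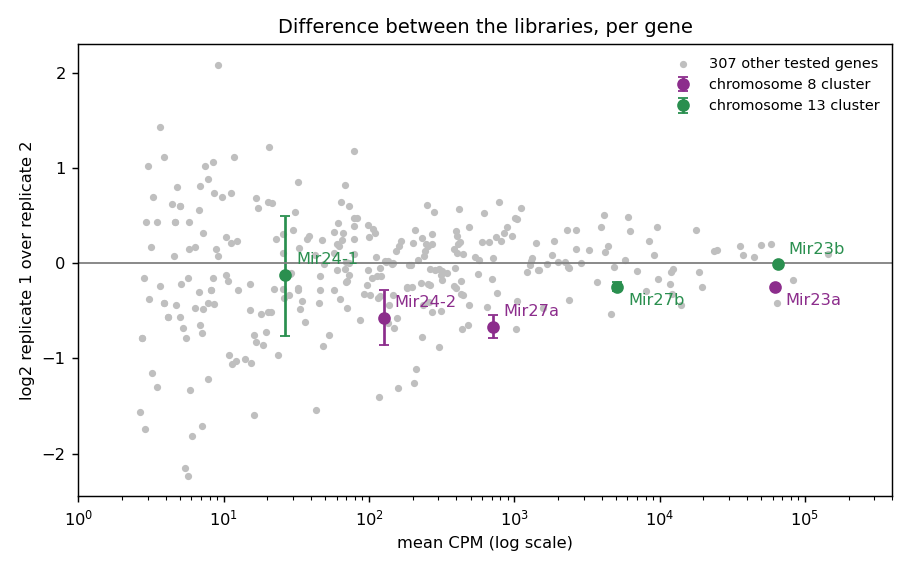
Log2 ratio of replicate 1 over replicate 2 after TMM (y) against mean CPM (x, log scale) for the members, with exact 95% counting intervals as bars, and for 307 other tested genes in grey. Mir23a, Mir27a and Mir24-2 lie between -0.67 and -0.25, and Mir23b lies at -0.01.

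The marker lists of the tissue were as follows, as shares of gene counts, which hold only reads placed at 1 locus. Reads of a marker that aligned to several loci are left out, so shares of different lists cannot be ranked against each other. The skeletal muscle list of 9 genes held 5.51% of gene counts in replicate 1 and 4.84% in replicate 2, led by the muscle-specific Mir206 at 49955 ± 4826 CPM. The endothelial list, in which Mir126a held all but 1 count, had 7.83% in replicate 1 and 8.75% in replicate 2. The smooth muscle and pericyte list of Mir143 and Mir145a had 5.89% in replicate 1 and 7.87% in replicate 2. Leukocyte markers had 0.266% and 0.229%, and the red cell markers Mir451a and Mir144 had 0.0174% and 0.0355%. Liver Mir122 had 20 and 23 counts, and of 6 neuronal markers 5 had none in either library. In replicate 1, where the chromosome 8 members were lower, the endothelial, smooth muscle and red cell shares were also lower and the skeletal muscle share was higher. In the exact binomial test of replicate 1 over replicate 2, 3 of 8 tested skeletal muscle markers passed as higher and 2 as lower, with a median log2 ratio of -0.43 although their summed share was higher. The endothelial marker tested and both smooth muscle and both red cell markers passed as lower, 2 of 4 leukocyte markers passed as higher and 2 as lower, Mir122 did not pass, and no neuronal marker was tested. Over all 313 tested genes, 18.5% passed as higher and 19.8% as lower. The part of these markers in the differences of the members was not tested. In whole tissue, fewer cells of a type and less RNA per cell cannot be told apart.

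Other miRNA genes tied to the processes for which the clusters are known were counted in the same test. Of 15 listed genes of muscle atrophy and growth, 13 were tested, 4 passed as higher in replicate 1 (Mir206, Mir486, Mir351 and Mir1a-2), 3 as lower (Mir322, Mir21a and Mir182) and 6 did not pass, beside 18.5% higher and 19.8% lower over all tested genes. Mir351, Mir1a-2, Mir21a and Mir182 here, and Mir20a in the next list, are named after their values were seen. Mir206, a muscle-specific gene, had 53367 CPM in replicate 1 and 46543 CPM in replicate 2, and Mir322 had 10882 and 13507 CPM. Of 10 listed genes of vessel growth, 9 were tested, 0 passed as higher, 2 passed as lower (Mir126a and Mir20a) and 7 did not pass, a share near the 19.8% of all tested genes that passed as lower. Mir126a had 78275 CPM in replicate 1, below the 87525 CPM of replicate 2. The median log2 ratio was -0.18 over the atrophy and growth list and -0.14 over the vessel list, against -0.05 over all tested genes, while the summed share of the atrophy and growth list was higher in replicate 1, at 7.78% against 7.47%. Mir206 and Mir126a stand in a marker list as well.

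Among the members, the miR-24 genes are those with an annotated miRNA gene on the opposite strand. Mir3074-2 lies within Mir24-2 on the opposite strand, at 84208825 to 84208907 on chromosome 8, and had 0 counts in either library. The limit taken for a count of 0, which is 3 counts, equals 2.01 CPM in the first library and 1.48 CPM in the second. Mir3074-1 spans Mir24-1 on the opposite strand, at 63301199 to 63301283 on chromosome 13, and had 8 counts in each library. In the column that ignores strand, both miR-24 genes had 0 counts, since reads in such overlaps are left unassigned there. The counts of the miR-23 and miR-27 genes were the same in both columns, and none of them had a count on the opposite strand.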

How the data were processed

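Small RNA libraries of gastrocnemius from 2 samples of 1 group were analysed. The values deposited by the authors are raw read counts per miRNA gene, without normalization, on mm10 with GENCODE M21 per the file headers of the deposited description. For the aligner, trimming and mismatch settings, the sources used here give nothing. Column 3, which holds the strand of the gene as read from the values, was used, and 4 summary rows were left out. Gene rows hold only reads placed at 1 locus. How reads of CAST alleles aligned was not analysed here.

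CPM were computed on the gene counts. Ratios within a library carry exact Clopper-Pearson 95% intervals, which cover counting error only. Libraries were compared with an exact two-sided binomial test after TMM (edgeR 4.0.16, R 4.3.3) over genes with at least 10 counts in all, with Benjamini-Hochberg adjustment and a threshold of 0.05, and with edgeR's exact negative binomial test. A contrast between conditions, as a quasi-likelihood test needs, was not part of this design. The binomial step was tested on simulated data. The alternatives were DESeq2 size factors (1.42.0), other totals and filters, the column that ignores strand and single libraries.

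Hairpins and mature arms came from RefSeq (GRCm38.p6): all 6 members matched, with 11 mature arms, and the Mir23b 3p arm was not among them. Named genes were the members, genes on their opposite strand, the gene above and below each in level, and the first 2 of each list. Members and lists were chosen with earlier results of these data known.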

Additional observations from a re-analysis of the deposited data

Results flagged for a closer look

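No comparison of the members used the counts on their opposite strand, which for Mir24-1 were 8 in each library. This is above the 3 counts that a count of 0 allows. They are the counts of Mir3074-1, whose annotated hairpin spans Mir24-1 on that strand and which did not pass between the libraries (adjusted p = 0.747, exact binomial test), and the opposite strand of Mir24-2 had 0 counts. The source of these reads was not tested.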

How the results depend on the processing

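Of 128 alternative values, 99 stayed the same, 27 moved, 1 gained a call and 1 changed both sign and call. Those that stayed the same kept their direction and their call or moved by less than the spread between the libraries. For numbers of genes that passed, staying within a fixed factor of the main number was enough. Leaving out 1 of 2 libraries moves their mean by less than their SD whatever the values, so those alternatives could only fall among the 99. The value that changed both sign and call was Mir23b in replicate 1 over replicate 2, at 0.0354 with TMM over genes with at least 10 counts. This setting was chosen after seeing the data, because the scaling itself shifted. Mir23a, Mir27a and Mir27b passed as lower in replicate 1 in 7 of 7 settings and Mir24-2 in 6 of 6, without the column that ignores strand, where it had no counts. Mir24-1 passed in 0 of 5. All settings reuse the same 2 libraries, and those that change only the filter keep the main scaling and give identical log2 ratios. The share of the chromosome 8 cluster was 8.38% with the column that ignores strand, 1.27% of all reads in the files and 8.12% of counts without the 2 highest genes, since the total changed. That of the chromosome 13 cluster was 9.40%, 1.42% and 9.10%. Without replicate 1 or 2 the shares ranged from 5.73 to 6.82% and from 6.98 to 7.07%. Per base of hairpin, the log2 ratio of the clusters was -0.49, Mir24-2 over Mir24-1 1.57, Mir24-2 over Mir23a -9.47 and Mir24-1 over Mir23b -11.14. With 1 library left out, the cluster ratio ranged from -0.28 to -0.05, Mir23a over Mir23b, which has no call, from -0.20 to 0.04 with a change of sign, Mir27a over Mir27b from -3.09 to -2.67 and Mir24-2 over Mir24-1 from 2.00 to 2.45. Ratios of a miR-24 gene have no value in the column that ignores strand. Over all genes, 50 to 68 passed as higher and 53 to 62 as lower in replicate 1 across the settings. Counts of 38 and 56 limit what can be said of Mir24-1. No paired analysis was possible because the design has 1 group.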
